A study of Mus musculus with 18 samples.

Results

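The glutathione transferase and glutathione peroxidase genes of the mouse were followed in medullary thymic epithelial cells (mTECs) labelled as knockouts of Aire, Fezf2 or Chd4. The members were taken by symbol: Gst followed by a class letter and a number, Mgst with a number, and Gpx with a number. This gave 33 genes of the 49585 in the Aire and Fezf2 count tables, namely 8 peroxidases (Gpx), 4 alpha (Gsta), 7 mu (Gstm), 3 pi (Gstp), 4 theta (Gstt), 2 omega (Gsto), 1 kappa (Gstk), 1 zeta (Gstz) and 3 microsomal (Mgst) transferases. The Chd4 table holds 21969 genes, with 32 members by symbol and 33 by gene ID, because Gstp3 stands there under an older symbol.

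Glutathione is a small thiol peptide that cells keep at high concentration. Glutathione transferases join it to electrophilic drugs, plant compounds and products of lipid oxidation, while glutathione peroxidases spend it to reduce hydrogen peroxide and lipid hydroperoxides. Several members are typical of single tissues: alpha transferases of liver and gut, Gpx2 of the gut lining, Gpx3 of kidney and plasma, Gpx5 of epididymis and Gpx6 of the olfactory epithelium. mTECs transcribe many tissue-restricted genes, which exposes developing T cells to them. Aire is a chromatin-associated regulator of this transcription, Fezf2 is a zinc finger transcription factor with a like role, and Chd4 is the helicase-like ATPase of the NuRD chromatin remodelling complex.

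The 18 RNA-seq libraries came from sorted mTECs in 6 groups of 3. Aire KO had its wild type group (WT_Aire), Fezf2 KO its wild type group (WT_Fezf2), and Chd4 cKO its floxed control (Chd4_CTL). The sample labels write Fezf2KO and the column names Fezf2cKO, so that deletion may be conditional. The Aire and Fezf2 groups are labelled C57BL/6, both wild types included, and both Chd4 groups C57BL/6x129P2. The labels give no age, no driver of a conditional deletion and no further detail of the alleles. Nothing there says that the libraries of a group came from separate animals. Y-linked reads, given below, show that the libraries of Chd4_CTL and of Aire KO did not all come from a single animal. WT_Aire library B also held far fewer such reads than libraries A and C of its group, with 22 of Ddx3y, against 315 and 306. For the Fezf2 groups and Chd4 cKO it is not known whether the libraries came from separate animals. A p-value here reflects only the scatter among these libraries, which may be technical in part or in whole. The tables held 3571570 to 17220157 exon reads per library, and levels are given as CPM, the reads of a gene scaled to the TMM-corrected total of its library.

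The targeted genes and several libraries need a word before the results. Fezf2 stood at 8.44 to 23.4 CPM in Fezf2 KO libraries, against 570 to 735 CPM in WT_Fezf2 libraries, and Chd4 at 24.6 to 30.2 CPM in Chd4 cKO libraries, against 55.4 to 66.5 CPM in Chd4_CTL libraries. Reads of Chd4 were thus lower in Chd4 cKO but far from absent. Aire was not lower where its knockout was labelled: it had 3737 to 4088 CPM in Aire KO-labelled libraries, against 1810 to 2302 CPM in WT_Aire libraries. Exon reads do not show protein. Whether the targeted allele leaves a transcript, or labels were exchanged, was not tested. Each direction given for the Aire comparison therefore rests on that label. WT_Fezf2 library B correlated with libraries A and C of its group at r = 0.866 and 0.869 across genes, against 0.972 between A and C. In library B, the 465 genes of the shortest exon length class lay a median of 1.08 log2 units above the mean of A and C, and 23 of 25 members with at least 5 CPM lay above, by a median of 0.81. Calls in Fezf2 KO are therefore given with and without library B. Reads of Y-linked genes marked Chd4_CTL library A as male and the other 5 libraries of that comparison as female, while the Fezf2 comparison held none from males. Each Aire group held 1 library low in such reads: Aire KO library A had 0 to 1 reads of each of 4 Y-linked genes, and WT_Aire library B had 8 to 22, low but not 0. Any comparison below of an Aire group with a Fezf2 group is therefore in part one between sexes. The 11 genes of the mTEC list, which includes Epcam, H2-Aa and the targeted Aire and Fezf2, were above 0 in all 6 groups. So was every gene of the thymocyte, B cell, fibroblast, endothelium, erythroid and cortical epithelium lists. A level above 0 therefore does not tell which cells were sorted.

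Per kilobase of exon, the same 5 members led the control groups. Gpx1, the main cytosolic peroxidase, had 391 ± 90.6 CPM per kb in WT_Aire, 634 ± 241 in WT_Fezf2 and 379 ± 26.4 in Chd4_CTL libraries (SD, n = 3 each). Gstp1, the pi transferase of most epithelia, followed at 257 ± 9.55, 390 ± 161 and 317 ± 21.1 CPM per kb in the same order of groups. Gpx4, which reduces lipid hydroperoxides within membranes, had 182 ± 8.4, 229 ± 104 and 307 ± 49.9 CPM per kb. The Chd4 data give some members another exon length, for Gpx4 1272 bases, against 1724 bases in the Aire and Fezf2 data. Values per kb of such members are therefore not comparable with Chd4_CTL. Before division by length, mean Gpx4 was 313 CPM in WT_Aire and 390 CPM in Chd4_CTL. Gpx3, the secreted peroxidase, had 206 ± 16.6, 235 ± 38.5 and 270 ± 13.985 CPM per kb, and Gstm1, a mu transferase, 88.3 ± 17.0, 191 ± 67.0 and 163 ± 4.71. In WT_Aire and in Chd4_CTL, Gpx1 lay above Gstp1 in every library and Gstm1 lay below the other 4, but Gpx3 and Gpx4 overlapped in both. Other members took top ranks in knockouts: Gsto1 came first in Fezf2 KO with 347 ± 34.3 CPM per kb, against rank 8 in WT_Fezf2, and Gpx6 came second in Chd4 cKO with 326 ± 51.3 CPM per kb, against rank 10 in Chd4_CTL. Neither rank is free of overlap: the Fezf2 KO libraries of Gsto1, at 323 to 386 CPM per kb, overlapped those of Gpx3 and Gpx1, and the Chd4 cKO libraries of Gpx6, at 267 to 358, overlapped those of Gpx4.

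In Aire KO-labelled libraries the members moved down or did not pass the test. Of the 33 members 29 had enough reads to be tested with edgeR's quasi-likelihood test, 9 were lower and 0 were higher at an adjusted p under 0.05. Over all 14949 genes tested 9.37% were lower, 5.73% higher and 15.1% called in either direction. The lower ones were Gpx2, Gpx3, Gpx6, Gsta3, Gstm1, Gstm2, Gstm3, Gstm7 and Gsto1. Their log2 fold changes and those of the other tested members had a median of -0.90, with 27 of 29 below 0, where the median over all genes was 0.00. No member was higher, although 21 members had an unadjusted p under 0.05 in either direction, and DESeq2 also called 0 members higher. The share of all genes with an unadjusted p under 0.05 was not counted. Marker genes of mTEC subtypes moved in the same comparison: of 8 tested genes of the enterocyte and hepatocyte-like list 4 were lower and 1 was higher, with a summed level of 382 to 630 CPM in Aire KO-labelled libraries, against 768 to 885 CPM in WT_Aire. Of 5 microfold-like genes 3 were lower, with sums of 588 to 866 CPM in Aire KO-labelled libraries, against 1006 to 1669 CPM in WT_Aire. Of 4 tested dendritic cell and macrophage markers 2 were lower, with sums of 1025 to 1656 CPM in Aire KO-labelled libraries, against 948 to 1196 CPM in WT_Aire, and Itgax at 0 in the knockouts. Of 4 tested fibroblast markers 3 were lower and Dcn was higher, with sums of 315 to 405 CPM in Aire KO-labelled libraries, against 182 to 223 CPM in WT_Aire. Of the 11 mTEC markers 4 were higher and 2 lower, with sums of 18360 to 19610 CPM in Aire KO-labelled libraries, against 13860 to 15470 CPM in WT_Aire. Most of that sum was H2-Aa, with a mean of 12410 CPM in Aire KO-labelled libraries, against 9776 CPM in WT_Aire. The list also holds Aire itself, at 3941 CPM, against 2018 CPM in WT_Aire. Lower too were 2 of 7 keratinocyte-like markers, with sums of 176 to 315 CPM in Aire KO-labelled libraries, against 281 to 360.5 CPM in WT_Aire. The part of these lists in the members' levels was not tested. In bulk RNA, fewer cells of a type and less RNA per cell cannot be told apart.

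In Fezf2 KO, 1 member was higher and 6 were lower of 30 tested, against 2.48% higher, 2.40% lower and 4.87% in either direction of 15695 genes. Gsto1 was the higher one. Gsta1, Gsta2, Gstm1, Gstm3, Gstm6 and Mgst1 were lower. The median log2 fold change of the tested members was -0.52, against -0.03 over all genes, and 23 of 30 lay below 0. Without WT_Fezf2 library B, 3 members were higher and 9 lower of 30, with 6.50% of all 16194 genes higher and 6.06% lower, and the median of the members was -0.23. That fit added Gpx3 and Gsta4 to the higher members, and Gpx1, Gsta3 and Gstm2 to the lower ones. Thymocyte markers differed as well: 8 of 12 were lower, with sums of 196 to 240 CPM in Fezf2 KO libraries, against 385 to 713 CPM in WT_Fezf2, and 3 of 9 genes of the enterocyte and hepatocyte-like list were lower, with sums of 330 to 426 CPM in Fezf2 KO, against 776 to 1116 CPM in WT_Fezf2. Of 6 markers of cortical epithelium only Ctsl was called, as higher (1.64, adjusted p = 0.00517). The list summed to 1340 to 1734 CPM in Fezf2 KO, against 398 to 969 CPM in WT_Fezf2, without overlap. Ctsl alone made up most of that sum, with a mean of 1185 CPM in Fezf2 KO, against 382 CPM in WT_Fezf2. Of 7 keratinocyte-like markers 2 were higher and 2 lower, with sums of 876 to 949 CPM in Fezf2 KO, against 659 to 1426 CPM in WT_Fezf2. No gene of these lists was at 0 in a whole group, and their part was not tested.

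In Chd4 cKO the family split. Of 29 members tested 9 were higher (Gpx6, Gpx8, Gstk1, Gstm2, Gstp2, Gstp3, Gstt3, Gstz1 and Mgst1) and 9 were lower (Gpx3, Gsta1, Gsta2, Gsta4, Gstm3, Gstm7, Gsto1, Gstp1 and Mgst3). Among all 15182 genes 14.3% were higher, 14.3% were lower and 28.6% were called in either direction. The median of the members was 0.01 and that of all genes 0.00. Without the male library Chd4_CTL A, 8 members were higher and 10 lower of 30 tested, with 11.4% of all genes higher and 10.9% lower. Of 9 tuft cell markers 5 were lower, with sums of 316 to 401 CPM in Chd4 cKO, against 470 to 700 CPM in Chd4_CTL, and of 5 tested dendritic cell and macrophage markers 3 were lower, with sums of 545 to 710 CPM in Chd4 cKO, against 1027 to 1233 CPM in Chd4_CTL. Also lower were 3 of 5 microfold-like, 4 of 9 enterocyte and hepatocyte-like and 3 of 7 keratinocyte-like markers, while 2 of 6 markers of cortical epithelium were higher. No gene of the tuft, dendritic, microfold, enterocyte or keratinocyte lists was at 0 in a whole group, and their part in the members' changes was not tested.

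**Figure D1:**
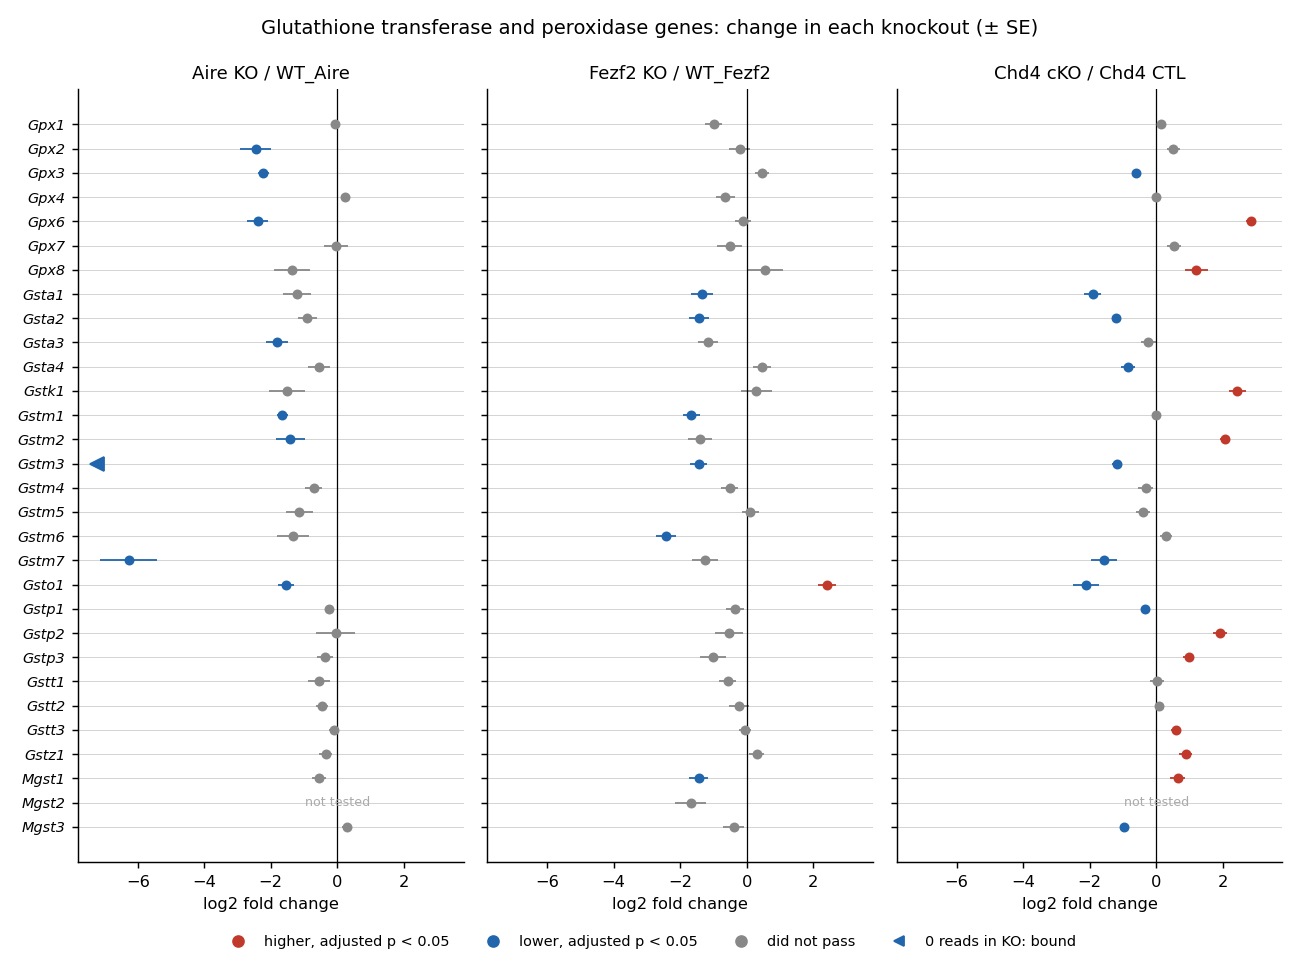
Log2 fold change of each tested member (rows) in Aire KO-labelled libraries, in Fezf2 KO and in Chd4 cKO, each over its own control; points show the estimate and bars its standard error, red higher, blue lower and grey not past an adjusted p of 0.05. The Aire panel holds 9 blue and 0 red members and the Chd4 panel 9 of each, while Gsto1 is the 1 red point of the Fezf2 panel; the arrowhead for Gstm3 marks a bound, since its knockout libraries held 0 reads.

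Among the peroxidases, Gpx6 was called in opposite directions in 2 knockouts, as labelled. This enzyme of the olfactory epithelium, a selenoprotein in humans but not in the mouse, had 440, 445 and 332 CPM in Chd4 cKO libraries, against 59.4, 55.4 and 54.8 CPM in Chd4_CTL. Every Chd4 cKO library lay far above every control, and the log2 fold change was 2.85 ± 0.13 (SE, adjusted p = 9.88e-07). In Aire KO-labelled libraries it had 2.86, 3.43 and 4.97 CPM, against 20.6, 15.03 and 24.0 CPM in WT_Aire, again without overlap (-2.40 ± 0.33, adjusted p = 0.00026). Gpx6 in Fezf2 KO libraries had 50.1, 35.6 and 31.2 CPM, against 38.4, 51.6 and 36.8 CPM in WT_Fezf2, where the groups overlapped (adjusted p = 0.845, and 0.897 without library B). Gpx6 lies at chr13:21312217-21319624 (GRCm38), and its transcripts share no run of 50 bases with another annotated gene.

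Gpx3, the secreted selenoprotein of kidney and plasma, had 102, 77.2 and 59.3 CPM in Aire KO-labelled libraries, against 394, 386 and 338 CPM in WT_Aire. The groups lay well apart (-2.23 ± 0.17, adjusted p = 3.06e-06). In Chd4 cKO it had 301, 360 and 307 CPM, against 500, 461 and 508 CPM in Chd4_CTL, a smaller fall (-0.60 ± 0.09, adjusted p = 0.00116). Gpx3 in Fezf2 KO libraries had 679, 501 and 584 CPM, against 397, 507 and 377 CPM in WT_Fezf2, and only library B of the controls reached into the knockout range. Its log2 fold change there was 0.46 ± 0.21 (adjusted p = 0.257) and 0.61 ± 0.13 without library B (adjusted p = 0.00994).

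Gpx2, the peroxidase of the gut lining, had 1.19, 1.93 and 5.91 CPM in Aire KO-labelled libraries, against 14.7, 18.6 and 16.4 CPM in WT_Aire (-2.46 ± 0.45, adjusted p = 0.00233). It did not pass in Fezf2 KO (adjusted p = 0.745, and 0.425 without library B) or in Chd4 cKO, where it had 55.3, 51.0 and 34.3 CPM, against 30.7, 28.7 and 39.7 CPM in Chd4_CTL (adjusted p = 0.0669). That Chd4 value passed when Chd4 cKO library C (0.0150) or Chd4_CTL library C (0.0326) was left out. Gpx8, a peroxidase of the endoplasmic reticulum, had 9.06, 8.44 and 11.3 CPM in Chd4 cKO, against 5.35, 2.23 and 4.79 CPM in Chd4_CTL (1.21 ± 0.34, adjusted p = 0.0232). Its call was lost without Chd4 cKO library C (adjusted p = 0.0702) or Chd4_CTL library B (0.0640), and in the joint fit of all 18 libraries (1.25, adjusted p = 0.0680).

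With all libraries of its own control, Gpx1 and Gpx4 were called in no knockout by edgeR's test of that comparison alone. Other fits did call them in Fezf2 KO. Gpx1 was lower with DESeq2 (-0.97, adjusted p = 0.00614) and in the joint fit of all 18 libraries (-0.99, adjusted p = 0.00205). Gpx4 was lower in the joint fit (-0.66, adjusted p = 0.0374). Gpx1 had 390.5, 385 and 431 CPM in Aire KO-labelled libraries, against 361, 365 and 531 CPM in WT_Aire, and 414, 501 and 445 CPM in Chd4 cKO, against 389, 391.6 and 439 CPM in Chd4_CTL, and passed in neither. In Fezf2 KO it had 326, 333 and 369 CPM, against 522, 978 and 538 CPM in WT_Fezf2. All knockout libraries lay below all controls there, with library B the highest of the controls, and the test gave an adjusted p of 0.0595; without library B the log2 fold change was -0.63 ± 0.11 (adjusted p = 0.00207). Gpx4 had 352, 380 and 372 CPM in Aire KO-labelled libraries, against 305, 304 and 330 CPM in WT_Aire (adjusted p = 0.147), 256, 240 and 258 CPM in Fezf2 KO, against 291, 602 and 292 CPM in WT_Fezf2 (adjusted p = 0.248, and 0.232 without library B), and 372, 394 and 391 CPM in Chd4 cKO, against 338, 461 and 372 CPM in Chd4_CTL (adjusted p = 0.920). In Gpx4, 34.7% of the runs of 50 bases in its transcripts also occur in other genes, mostly Gpx4-ps2. Against WT_Aire as the control, Gpx4 was lower in Fezf2 KO (-0.36 ± 0.10, adjusted p = 0.0233). Gpx7, a further peroxidase of the endoplasmic reticulum, passed in none of the 3 comparisons, and Gpx5 of the epididymis was not tested, with 0 to 34 reads per group.

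**Figure D2:**
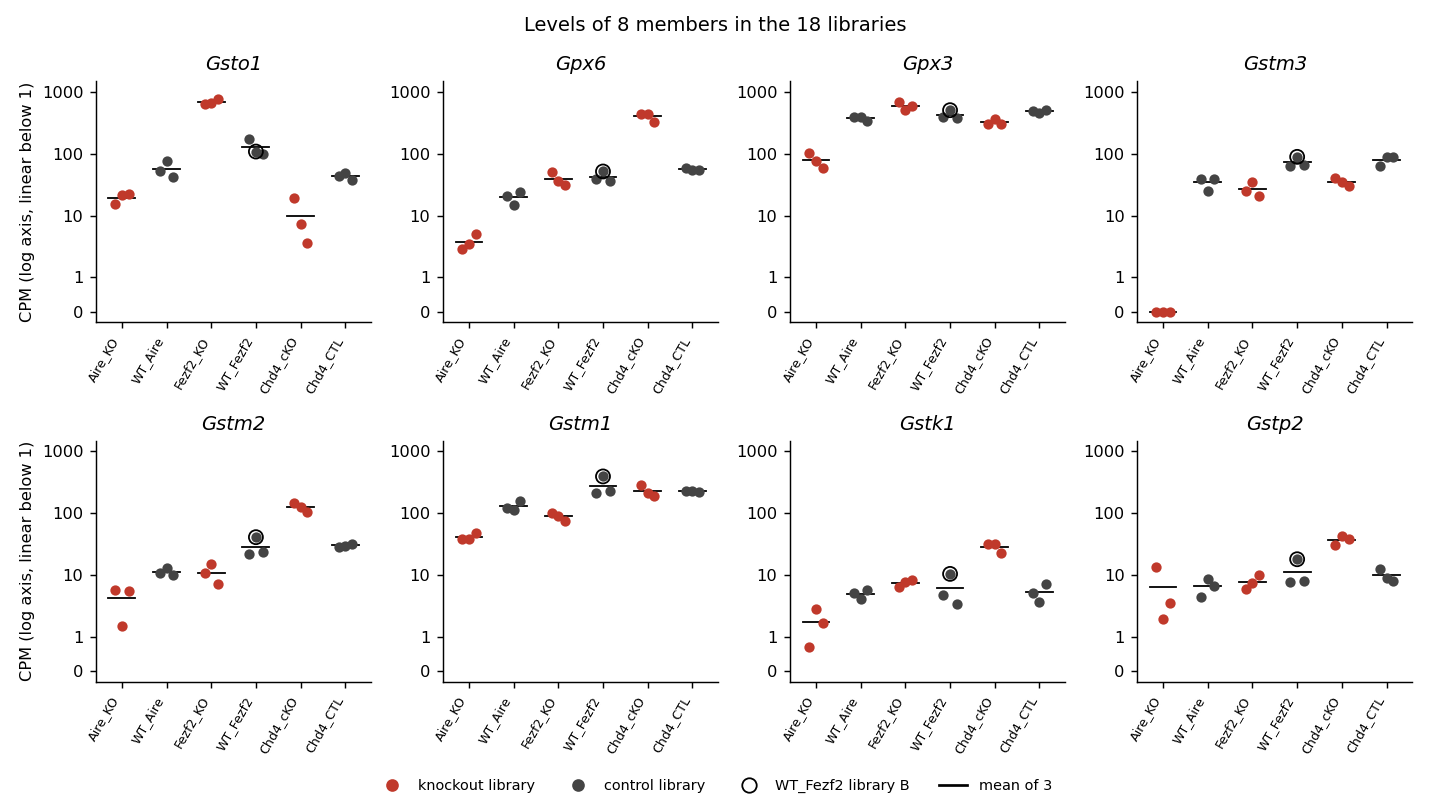
CPM of 8 members in each of the 18 libraries, on a log axis that is linear below 1; each point is a library, red in knockouts and dark in controls, the bar is the mean of 3 and the ring marks WT_Fezf2 library B. Gsto1 is highest in the Fezf2 KO libraries and Gpx6, Gstm2, Gstk1 and Gstp2 in the Chd4 cKO libraries, while Gstm3 stands at 0 in all 3 libraries labelled Aire KO.

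The alpha transferases, which conjugate products of lipid peroxidation and many drugs in liver and intestine, were lower or did not pass in each knockout when all libraries were used. Gsta2 had 44.7, 49.4 and 38.5 CPM in Chd4 cKO, against 101, 94.5 and 115 CPM in Chd4_CTL (-1.21 ± 0.12, adjusted p = 8.26e-05). Its level in Fezf2 KO was 80.7, 68.3 and 61.9 CPM, against 139, 294 and 143 CPM in WT_Fezf2, with no overlap (-1.45 ± 0.30, adjusted p = 0.0250). Without library B the change was -0.998 ± 0.13 (adjusted p = 0.00044). Against WT_Aire as the control, where sex differed in part as well, the change was 0.13 ± 0.19 (adjusted p = 0.698). This fall therefore rests on the choice of wild type group. Gsta1, which shares 90.5% of its runs of 50 bases with other genes, mainly Gm3776 and Gsta2, had 7.19, 12.8 and 6.85 CPM in Chd4 cKO, against 31.8, 29.7 and 44.5 CPM in Chd4_CTL (-1.91 ± 0.26, adjusted p = 0.00049). Its level in Fezf2 KO was 19.0, 17.5 and 20.6 CPM, against 33.3, 77.8 and 34.7 CPM in WT_Fezf2 (-1.35 ± 0.34, adjusted p = 0.0492, and -0.83 ± 0.19, adjusted p = 0.0121, without library B). The sources used here do not say how the authors counted such shared reads, so Gsta1 and Gsta2 cannot be told apart with certainty.

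In Aire KO-labelled libraries, Gsta1 and Gsta2 missed the threshold with adjusted p of 0.0791 and 0.0518, and both passed when Aire KO library C was left out (0.0290 and 0.00149). Gsta1 also passed without WT_Aire library A (adjusted p = 0.0315). With all libraries, DESeq2 called both lower (adjusted p = 0.0391 for Gsta1 and 0.0184 for Gsta2). Gsta3 did pass with all libraries, at 5.0002, 3.22 and 3.78 CPM in Aire KO-labelled libraries, against 10.7, 14.8 and 16.8 CPM in WT_Aire (-1.82 ± 0.34, adjusted p = 0.00268). Gsta4, whose preferred substrate is hydroxynonenal, had 36.2, 35.4 and 37.7 CPM in Chd4 cKO, against 46.7, 53.9 and 94.0 CPM in Chd4_CTL (-0.84 ± 0.22, adjusted p = 0.0161, and 0.0511 without Chd4 cKO library B). In the joint fit of all 18 libraries that fall missed the threshold (-0.80, adjusted p = 0.109). In Fezf2 KO it had 148, 156 and 234 CPM, against 92.4, 173 and 125 CPM in WT_Fezf2, with overlapping groups (adjusted p = 0.396); without library B it was higher by 0.72 ± 0.20 on the log2 scale (adjusted p = 0.0322), and against WT_Aire by 2.02 ± 0.22 (adjusted p = 3.13e-05).

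The 7 mu transferases lie in a row on chromosome 3 between position 107895821 and 108044894 of GRCm38, in the order Gstm5, Gstm7, Gstm6, Gstm3, Gstm2, Gstm1 and Gstm4. Mu transferases conjugate epoxides and other electrophiles. Summed over the row they stood at 62.8 to 73.8 CPM in Aire KO-labelled libraries, against 193 to 275 CPM in WT_Aire. The sums were 148 to 193 CPM in Fezf2 KO, against 386 to 628 CPM in WT_Fezf2, and 386 to 569 CPM in Chd4 cKO, against 420 to 452 CPM in Chd4_CTL, where alone the groups overlapped.

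Not a single read of Gstm3 was counted in Aire KO-labelled libraries (0 in each of 3), against 38.96, 25.4 and 39.1 CPM in WT_Aire, a total of 487 reads. With a floor of 3 reads over the group in place of the 0, it was at least 151-fold lower (adjusted p = 2.69e-06). Its position is chr3:107963696-107969283, and 28.8% of its runs of 50 bases occur in other genes. In Fezf2 KO Gstm3 had 25.2, 34.6 and 20.4 CPM, against 63.3, 89.1 and 66.7 CPM in WT_Fezf2 (-1.45 ± 0.25, adjusted p = 0.0116, and -1.28 ± 0.20, adjusted p = 0.00133, without library B), but its change was -0.42 ± 0.22 against WT_Aire (adjusted p = 0.229). In Chd4 cKO it had 40.5, 35.1 and 29.98 CPM, against 64.1, 87.8 and 89.3 CPM in Chd4_CTL (-1.19 ± 0.15, adjusted p = 0.00036). Gstm3 and Gsto1 were the 2 members called in all 3 knockouts.

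Gstm7 had 1 read over the 3 libraries labelled Aire KO, against 112 reads over WT_Aire, at 6.86, 4.71 and 12.3 CPM (adjusted p = 0.000269). The ratio of WT_Aire to Aire KO levels was 104, with a 95% interval of 18.4 to 4161 that covers counting error only. In Chd4 cKO it had 8.34, 7.44 and 1.93 CPM, against 13.2, 22.02 and 20.1 CPM in Chd4_CTL (-1.57 ± 0.39, adjusted p = 0.0127, and 0.0526 without Chd4_CTL library B). Gstm7 had 8.04, 3.91 and 3.67 CPM in Fezf2 KO, against 12.2, 13.4 and 12.5 CPM in WT_Fezf2, apart but not past the threshold (adjusted p = 0.102, and 0.0691 without library B).

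Gstm1, the most abundant of the row, had 38.1, 38.4 and 47.5 CPM in Aire KO-labelled libraries, against 120, 111 and 158 CPM in WT_Aire (-1.65 ± 0.16, adjusted p = 2.03e-05). In Fezf2 KO it had 101, 90.1 and 75.7 CPM, against 216, 395 and 234 CPM in WT_Fezf2 (-1.66 ± 0.26, adjusted p = 0.00762, and -1.33 ± 0.13, adjusted p = 4.81e-05, without library B). In Chd4 cKO it had 282, 214 and 188 CPM, against 233, 227 and 220 CPM in Chd4_CTL, on both sides of the controls (adjusted p = 0.967). Gstm6 fell in Fezf2 KO, to 5.94, 4.32 and 7.11 CPM, against 26.2, 37.7 and 28.9 CPM in WT_Fezf2 (-2.41 ± 0.30, adjusted p = 0.0021, and -2.25 ± 0.28, adjusted p = 0.000226, without library B). Gstm6 also stood below WT_Aire there, without passing (-1.19 ± 0.45, adjusted p = 0.0811).

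Gstm2 went against its neighbours in Chd4 cKO. It had 146, 125 and 107 CPM in Chd4 cKO, against 29.0, 29.7 and 31.8 CPM in Chd4_CTL (2.06 ± 0.13, adjusted p = 5.6e-06), while Gstm3 on one side fell and Gstm1 on the other did not pass. In Aire KO-labelled libraries Gstm2 had 5.71, 1.5004 and 5.44 CPM, against 10.7, 13.0 and 9.93 CPM in WT_Aire (-1.42 ± 0.44, adjusted p = 0.0451). That call was lost without Aire KO library B (adjusted p = 0.112) and without WT_Aire library A (0.103), B (0.144) or C (0.0867). In Fezf2 KO it had 10.7, 15.02 and 7.11 CPM, against 21.8, 41.1 and 24.1 CPM in WT_Fezf2, just short of the threshold (adjusted p = 0.0520) and past it without library B (-1.06 ± 0.30, adjusted p = 0.0350). With all libraries it also passed there with DESeq2 (-1.38, adjusted p = 0.00956) and in the joint fit (-1.40, adjusted p = 0.00406). Gstm5, with 13.9% of its exon bases in 4933431E20Rik on the opposite strand, and Gstm4 were called in no knockout over its own control. In the joint fit of all 18 libraries Gstm5 was lower in Aire KO-labelled libraries (-1.12, adjusted p = 0.0117), and so was Gstm6 (-1.31, adjusted p = 0.0232). Against WT_Aire, Gstm5 was higher in Fezf2 KO (1.31 ± 0.25, adjusted p = 0.00264). Gstm4 passed in Aire KO-labelled libraries without WT_Aire library A (adjusted p = 0.0414), and Gstm6 did so without WT_Aire library B (0.0133).

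**Figure D3:**
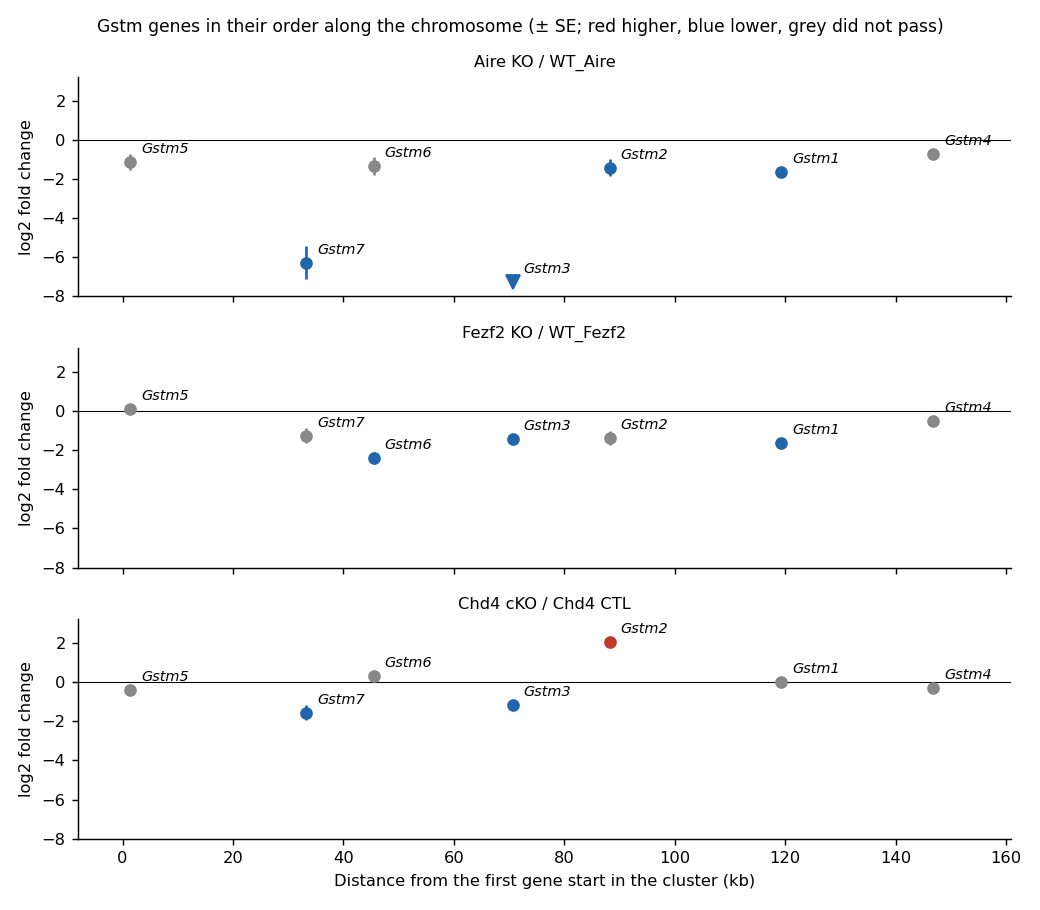
Log2 fold change ± SE of the 7 Gstm genes (points; red higher, blue lower, grey did not pass) against their distance in kb along the chromosome, for the Aire KO-labelled libraries, Fezf2 KO and Chd4 cKO, each over its control. All 7 lie below 0 in the Aire panel, where the triangle for Gstm3 is a bound, and Gstm2 alone stands above 2 in the Chd4 panel between Gstm3 and Gstm1.

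The 250 bases before the RefSeq start of Gstm2 and of Gstm3 are shown because these neighbours moved in opposite directions in Chd4 cKO. Both are read on the minus strand of GRCm38.p6, at chr3:107986421-107986670 and chr3:107969175-107969424, 5′ to 3′. Capitals would mark runs of 12 or more bases that both windows hold, and there were none.
Gstm2: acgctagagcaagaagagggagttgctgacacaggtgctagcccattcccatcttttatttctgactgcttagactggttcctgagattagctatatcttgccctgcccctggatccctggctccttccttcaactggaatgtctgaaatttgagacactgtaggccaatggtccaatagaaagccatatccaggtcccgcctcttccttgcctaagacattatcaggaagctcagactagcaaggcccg
Gstm3: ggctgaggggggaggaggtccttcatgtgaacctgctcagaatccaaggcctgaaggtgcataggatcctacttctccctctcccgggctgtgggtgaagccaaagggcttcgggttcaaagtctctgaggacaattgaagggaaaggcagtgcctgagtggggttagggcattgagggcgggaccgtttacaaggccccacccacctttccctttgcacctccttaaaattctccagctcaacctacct

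The pi transferases on chromosome 19 also split in Chd4 cKO, and there the 2 start regions are near copies. Gstp2 had 30.6, 42.6 and 38.5 CPM in Chd4 cKO, against 12.7, 9.15 and 7.90 CPM in Chd4_CTL (1.93 ± 0.21, adjusted p = 0.000127). Gstp1 had 178, 199 and 190 CPM in Chd4 cKO, against 225, 237 and 257 CPM in Chd4_CTL, without overlap and with a small change (-0.34 ± 0.09, adjusted p = 0.0171). The Gstp1 call was lost without Chd4 cKO library A (adjusted p = 0.0629) or Chd4_CTL library C (0.0583), and in the joint fit of all 18 libraries (-0.30, adjusted p = 0.318). Gstp3, which shares no run of 50 bases with another gene, had 30.5, 36.3 and 34.3 CPM in Chd4 cKO, against 15.2, 16.3 and 19.9 CPM in Chd4_CTL (0.97 ± 0.16, adjusted p = 0.00146). None of the 3 passed in Aire KO-labelled libraries or in Fezf2 KO, with or without library B. Gstp3 did pass as lower in Fezf2 KO against WT_Aire (-0.78 ± 0.22, adjusted p = 0.0232) and in the joint fit (-1.01, adjusted p = 0.0311). Gstp2 shares 54.3% of its runs of 50 bases with other genes, mainly Gstp1, and Gstp1 shares 33.7%, so reads may have been exchanged between them.

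The 250 bases before the RefSeq starts of Gstp2 and Gstp1 are given for comparison, on the minus strand of GRCm38.p6 at chr19:4042222-4042471 and chr19:4037913-4038162. Capitals mark runs of 12 or more bases held by both windows: 166 of the bases of Gstp2 (66.4%) and 154 of those of Gstp1 (61.6%).
Gstp2: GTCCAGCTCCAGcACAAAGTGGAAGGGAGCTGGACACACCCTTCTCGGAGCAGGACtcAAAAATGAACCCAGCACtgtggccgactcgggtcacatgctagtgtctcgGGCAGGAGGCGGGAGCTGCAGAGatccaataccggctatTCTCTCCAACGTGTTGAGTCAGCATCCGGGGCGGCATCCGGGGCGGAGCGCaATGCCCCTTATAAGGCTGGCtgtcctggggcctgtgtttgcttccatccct
Gstp1: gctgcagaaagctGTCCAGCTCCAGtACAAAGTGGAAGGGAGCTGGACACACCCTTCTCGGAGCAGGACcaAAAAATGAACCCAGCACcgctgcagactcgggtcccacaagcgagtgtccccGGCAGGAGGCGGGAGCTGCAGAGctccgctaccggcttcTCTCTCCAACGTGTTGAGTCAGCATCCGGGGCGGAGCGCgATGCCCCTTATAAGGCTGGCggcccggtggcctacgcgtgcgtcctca

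The antioxidant response element, which the stress-response factor NRF2 binds, was looked for by its core TGACNNNGC or GCNNNGTCA in the same windows. Of 31 members with a RefSeq window 4 held it (12.9%): Gsta3, Gstm5, Gstm7 and Mgst1. For Gstm7 the match lay in the window chr3:107931615-107931864, most of which is inside the gene, whose end is 107931817. The window just before the gene, chr3:107931818-107932067, held none, nor did a further window of Mgst1. Only exact matches to the core were counted, so sites that depart from it were missed. Of 27025 genes with a window 11.5% held it, so the share among the members lay close to that of all genes.

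Omega transferases reduce dehydroascorbate and mixed disulphides rather than joining glutathione to drugs. Gsto1 had 636.5, 652 and 760 CPM in Fezf2 KO, against 176, 108 and 98.7 CPM in WT_Fezf2. Every knockout library held several times the level of every control, with a log2 fold change of 2.42 ± 0.26 (adjusted p = 0.00108), 2.31 ± 0.21 without library B (adjusted p = 2.27e-05) and 3.53 ± 0.19 against WT_Aire (adjusted p = 1.18e-07). It moved the other way in both other knockouts. In Aire KO-labelled libraries Gsto1 had 15.2, 21.2 and 21.99 CPM, against 52.3, 77.0 and 41.9 CPM in WT_Aire (-1.55 ± 0.23, adjusted p = 0.000595). In Chd4 cKO it had 19.0, 7.32 and 3.64 CPM, against 44.5, 48.7 and 37.6 CPM in Chd4_CTL (-2.11 ± 0.40, adjusted p = 0.00311). Gsto1 lies at chr19:47854970-47864790 and shares no run of 50 bases with another gene. Its neighbour Gsto2 was not tested, with 5 to 30 reads per group.

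Gstk1, the kappa transferase of mitochondria and peroxisomes, had 31.5, 32.0 and 22.7 CPM in Chd4 cKO, against 5.06, 3.71 and 7.18 CPM in Chd4_CTL. The groups lay well apart (2.44 ± 0.25, adjusted p = 9.88e-05). It stayed below 11 CPM in the other 4 groups and did not pass in Aire KO-labelled libraries (adjusted p = 0.0844, and 0.0338 in the joint fit) or in Fezf2 KO (0.775, and 0.208 without library B). Gstz1, which isomerises maleylacetoacetate in the breakdown of tyrosine, had 62.4, 51.1 and 49.7 CPM in Chd4 cKO, against 20.5, 29.2 and 37.8 CPM in Chd4_CTL (0.89 ± 0.19, adjusted p = 0.00653); 12.2% of its exon bases overlap other genes, Pomt2 and Gm6566, on the opposite strand. Among the theta transferases, Gstt3 had 156, 141 and 114 CPM in Chd4 cKO, against 95.7, 72.2 and 103 CPM in Chd4_CTL (0.60 ± 0.15, adjusted p = 0.0127), with 13.6% of its exon bases in Gm20441 on the same strand. Gstt1 and Gstt2 passed in none of the 3 comparisons, and Gstt4 was not tested, with 1 to 41 reads per group.

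The microsomal transferases sit in membranes. Mgst1 had 19.6, 14.4 and 17.0 CPM in Fezf2 KO, against 31.9, 65.2 and 42.4 CPM in WT_Fezf2 (-1.45 ± 0.29, adjusted p = 0.0222). The groups did not overlap, and the change was -1.12 ± 0.21 without library B (adjusted p = 0.00457) and -1.24 ± 0.21 against WT_Aire (adjusted p = 0.00096). In Chd4 cKO Mgst1 had 131, 108 and 97.2 CPM, against 57.7, 52.7 and 104 CPM in Chd4_CTL; the groups overlapped, and the adjusted p of 0.0487 became 0.0568 to 0.153 when any 1 library but Chd4_CTL library C was left out, and 0.0783 in the joint fit of all 18 libraries. Mgst3 fell in Chd4 cKO, to 30.2, 37.4 and 39.6 CPM, against 65.3, 69.5 and 75.1 CPM in Chd4_CTL (-0.97 ± 0.13, adjusted p = 0.000404). Mgst2, which can form leukotriene C4, was tested only in Fezf2 KO and did not pass (adjusted p = 0.0703, and 0.110 without library B). It did pass there as lower with DESeq2 (adjusted p = 0.0463) and in the joint fit (adjusted p = 0.0481).

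Several calls of Fezf2 KO missed the threshold when 1 knockout library was left out, while the log2 fold changes moved little. Gsta1 passed in no such fit, at -1.29 to -1.40 (adjusted p of 0.174 to 0.211), nor did Gsta2, at -1.36 to -1.56 (0.0973 to 0.146), or Mgst1, at -1.34 to -1.56 (0.0903 to 0.139). Gstm1 was lost without Fezf2 KO library B (adjusted p = 0.0625) or C (0.0705), and Gstm3 without A (0.0865) or C (0.0795). Gsto1 and Gstm6 passed in each fit that left out 1 library. Against WT_Aire as the control, Gstm1 (-0.59 ± 0.15, adjusted p = 0.0141) and Mgst1 stayed past the threshold, while Gsta1 (-0.38 ± 0.33, adjusted p = 0.468), Gsta2, Gstm3 and Gstm6 did not.

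**Figure D4:**
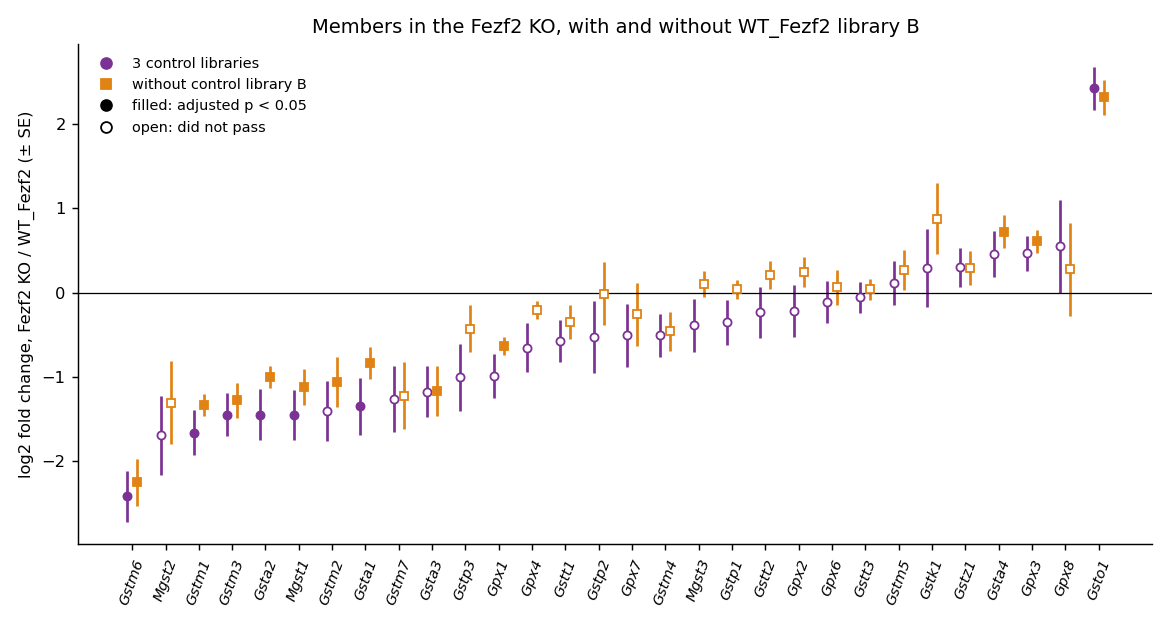
Log2 fold change ± SE of the 30 tested members in Fezf2 KO over WT_Fezf2, with all 3 control libraries (circles) and without control library B (squares); filled symbols passed an adjusted p of 0.05. Leaving out library B moved the median to -0.23, against -0.52 with all 3 controls, while Gsto1 stayed above 2 and Gstm6 below -2.

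Whether the knockouts differed from each other was tested as the difference of their log2 fold changes in 1 fit of all 18 libraries, with 31 members tested. The Aire and Fezf2 columns share a dated run name, while the Chd4 columns carry another, and the Chd4 groups have another strain label. A difference that involves Chd4 cKO therefore cannot be told apart from one between runs or strains. Each difference that involves Aire KO rests on the label as it stands, since an exchange of that label with WT_Aire would change the sign of the Aire term and with it the difference. As labelled, the effect of Aire KO differed from that of Fezf2 KO for 9 members, where 16.9% of 16169 genes differed. The difference, Aire KO minus Fezf2 KO, was negative for 7 of them. The effect of Chd4 cKO differed from that of Aire KO for 17 members, with a positive difference for 16, where 16.5% of genes differed. It differed from that of Fezf2 KO for 12 members, with a positive difference for 10, where 14.9% of genes differed. A positive difference need not mean a rise: Gpx3 changed by -0.56 in Chd4 cKO and by -2.21 in Aire KO as labelled. For Gsto1 the effect of Aire KO minus that of Fezf2 KO was -3.94 ± 0.48 (adjusted p = 8.02e-06) and that of Chd4 cKO minus Fezf2 KO was -4.49 ± 0.49 (adjusted p = 4.15e-06). For Gpx6, Chd4 cKO minus Aire KO was 5.26 ± 0.33 (adjusted p = 2.96e-09) and Chd4 cKO minus Fezf2 KO 2.99 ± 0.28 (adjusted p = 7.31e-07). For Gpx3, Aire KO minus Fezf2 KO was -2.67 ± 0.25 (adjusted p = 3.06e-07).

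Within the mu row and with the Aire libraries as labelled, Gstm2 differed between Chd4 cKO and both other knockouts, by 3.50 ± 0.46 from Aire KO (adjusted p = 2.39e-05) and by 3.50 ± 0.42 from Fezf2 KO (adjusted p = 1.22e-05). Gstm1 differed by 1.68 ± 0.30 (adjusted p = 0.0005) and 1.71 ± 0.29 (adjusted p = 0.000491) in the same comparisons, and its difference between Aire KO and Fezf2 KO was 0.03 ± 0.30 (adjusted p = 0.963). Gstk1 differed between Chd4 cKO and Aire KO by 3.95 ± 0.60 (adjusted p = 0.000119) and between Chd4 cKO and Fezf2 KO by 2.18 ± 0.55 (adjusted p = 0.0105). Mgst1 differed between Chd4 cKO and Fezf2 KO by 2.13 ± 0.38 (adjusted p = 0.000702). The differences named here that passed, for Gsto1, Gpx6, Gpx3, Gstm2, Gstm1, Gstk1 and Mgst1, also passed without WT_Fezf2 library B.

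The wild type groups give the background between libraries of the same labelled genotype and strain, but not of the same sex. Ddx3y, a Y-linked gene, had 63.6, 4.94 and 66.1 CPM in WT_Aire libraries, against 0.21, 0 and 0.24 CPM in WT_Fezf2. A difference between these groups therefore cannot be told apart from one between sexes. The same holds for each value of Fezf2 KO against WT_Aire. Of 31 members tested, 0 were higher and 0 lower in WT_Fezf2 than in WT_Aire with edgeR's quasi-likelihood test, where 0.0958% of 15656 genes were higher, 0.0319% lower and 0.128% called in either direction. DESeq2 called 8 members higher, and 12 members had an unadjusted p under 0.05 with edgeR. The shares of all genes for DESeq2 and for an unadjusted p were not counted, so these counts have no background here. Yet 29 of 31 members lay above 0, with a median log2 fold change of 0.62, against 0.03 over all genes. Without library B of WT_Fezf2, 7 members were higher and 0 lower of 31, with 1.93% of all genes higher and 2% lower and a median of 0.28. Among those 7 were Gsta2 (1.12, adjusted p = 0.00913), Gsta4 (1.30, adjusted p = 0.00769) and Gstm1 (0.73, adjusted p = 0.0181). With all libraries Gsta2 was 1.57 ± 0.33 above WT_Aire in WT_Fezf2 (adjusted p = 0.108), and -1.45 ± 0.30 in Fezf2 KO over WT_Fezf2; both values share the WT_Fezf2 libraries. Thymocyte markers also differed: 4 of 12 were higher, with sums of 389 to 718 CPM in WT_Fezf2, against 66.1 to 148 CPM in WT_Aire, and their part in the members' levels was not tested.

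Other genes of glutathione and redox metabolism, from lists chosen with earlier results known, were counted in the same fits. Their counts are to be read against the shares of all genes called: 5.73% higher and 9.37% lower in Aire KO-labelled libraries, 2.48% higher and 2.40% lower in Fezf2 KO, and 14.3% in each direction in Chd4 cKO. Of the genes of glutathione synthesis and turnover, 0 were higher and 4 lower of 17 tested in Aire KO-labelled libraries, 1 higher and 0 lower of 19 in Fezf2 KO, and 4 higher and 6 lower of 19 in Chd4 cKO. The median log2 fold changes of the list were -0.29, 0.06 and -0.14 in that order. In Aire KO-labelled libraries Gss, which joins glycine in the last step of synthesis, fell to 26.1 ± 0.94 CPM, against 39.02 ± 2.54 CPM in WT_Aire (SD, n = 3 each; -0.58, adjusted p = 0.0278). In Chd4 cKO Ggt7, of the gamma-glutamyltransferase family, had 24.8 ± 2.08 CPM, against 3.36 ± 2.19 CPM in Chd4_CTL (2.85, adjusted p = 0.000281), and Dpep1, a dipeptidase that degrades glutathione conjugates, had 1.75 ± 0.25 CPM, against 8.605 ± 2.02 CPM in Chd4_CTL (-2.33, adjusted p = 0.00103). Anpep, an aminopeptidase, was the higher gene in Fezf2 KO, with 24.75 ± 3.11 CPM, against 5.08 ± 0.77 CPM in WT_Fezf2 (2.29, adjusted p = 0.00235).

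A list of other glutathione-dependent enzymes and a related protein, Alox5ap, showed 1 higher and 0 lower of 15 in Aire KO-labelled libraries, 0 higher and 1 lower of 15 in Fezf2 KO, and 1 higher and 7 lower of 15 in Chd4 cKO, where 14.3% of all genes were lower. The lower ones in Chd4 cKO included Alox5ap, which presents arachidonate for leukotriene synthesis and does not itself use glutathione, at 2.13 ± 1.45 CPM, against 28.9 ± 10.1 CPM in Chd4_CTL (-3.53, adjusted p = 0.000144), and Ltc4s, leukotriene C4 synthase, at 3.95 ± 0.69 CPM, against 13.95 ± 2.83 CPM in Chd4_CTL (-1.79, adjusted p = 0.00105). Alox5ap and Hpgds are also in the tuft cell list, which was lower in the same libraries. A list of NRF2, its regulators and partners Keap1, Bach1 and Mafg, and its known targets showed 4 higher and 1 lower of 19 in Aire KO-labelled libraries. There 5.73% of all genes were higher. The 4 higher ones included Keap1, a repressor of NRF2 (0.62, adjusted p = 0.00318), so they do not all point one way. The list showed 1 higher and 0 lower in Fezf2 KO, and 2 higher and 4 lower in Chd4 cKO. Me1, the cytosolic malic enzyme, had 411 ± 72.4 CPM in Aire KO-labelled libraries, against 266.5 ± 28.4 CPM in WT_Aire (0.63, adjusted p = 0.00652), and 111 ± 9.04 CPM in Chd4 cKO, against 299 ± 10.6 CPM in Chd4_CTL (-1.42, adjusted p = 5.6e-06).

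Peroxiredoxins, thioredoxins, catalase and superoxide dismutases showed 1 higher and 0 lower of 15 in Aire KO-labelled libraries, 0 of 15 called in Fezf2 KO, and 1 higher and 3 lower of 15 in Chd4 cKO. Genes of selenoprotein synthesis and other selenoproteins showed 1 higher and 1 lower of 11, 0 higher and 1 lower of 11, and 1 higher and 3 lower of 11 in the same order of knockouts. In Chd4 cKO 28.6% of all genes were called in either direction, against 15.1% in Aire KO-labelled libraries and 4.87% in Fezf2 KO. Selenop, the selenium carrier of plasma, fell to 25.4 ± 4.19 CPM in Aire KO-labelled libraries, against 46.85 ± 4.45 CPM in WT_Aire (-0.88, adjusted p = 0.00383), and to 40.1 ± 10.8 CPM in Fezf2 KO, against 80.7 ± 8.98 CPM in WT_Fezf2 (-1.01, adjusted p = 0.0428). Of the 8 lipid peroxidation genes that act beside Gpx4, 0 were called in Aire KO-labelled libraries and in Fezf2 KO, and 4 were lower in Chd4 cKO, among them Alox15, a lipoxygenase, at 219 ± 7.5 CPM, against 434 ± 57.0 CPM in Chd4_CTL (-0.99, adjusted p = 0.000103).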

How the data were processed

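RNA-seq of sorted mTECs used total RNA and SMART-seq v4 amplification, per the labels' protocols. The authors deposited counts as total exon reads per gene and library, per the file headers. DESeq2 (no version) and 2 build names, GRCm38 and mm10, come from the submitters' processing notes. The sources used here give no aligner, strand setting or treatment of reads with several matches. A further 216 deposited per-library columns were left out. Column names hold the group, a dated run name and a barcode. The letters A, B and C follow barcode order and pair nothing.

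Each knockout was compared with its own control in edgeR 4.0.16 (R 4.3.3): TMM scaling, filterByExpr, the quasi-likelihood F test, and Benjamini-Hochberg adjustment over all genes tested, with calls at an adjusted p under 0.05. SE is the log2 fold change divided by the square root of F. Differences between knockouts were contrasts in a fit of all 18 libraries on shared gene IDs. Intervals and the floor of 3 reads cover counting error only. Alternatives were DESeq2 1.42.0, other size factors, no filter, a joint fit, other controls and each library left out. The members and lists were chosen with earlier results of these data known. Full values are given for members called in a knockout, for the 5 most abundant per length in controls, and for at most 4 called genes of each list and comparison. Runs of 50 bases and exon overlaps were taken from GENCODE transcripts and promoter windows from the RefSeq table.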

Additional observations from a re-analysis of the deposited data

How the results depend on the processing

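Counts of members called in Aire KO, Chd4 cKO and the differences between knockouts stayed within 1.5 times under DESeq2 (not run for the differences), DESeq2-type size factors, no filter and the joint fit of 18 libraries. Against WT_Fezf2 libraries A and C, chosen after seeing the data, Aire KO had 2 higher and 18 lower members. In Fezf2 KO, lower members numbered 10 with DESeq2 and 12 in the joint fit. Against WT_Aire, also chosen after seeing the data, 6 of 29 members were higher and 5 lower, and Gsta2 turned to 0.13. Over all 15661 genes of that fit 9.86% were higher and 9.55% lower. Between the wild type groups 8 members were higher with DESeq2, with no filter and in the joint fit. For calls with DESeq2, with no filter, in the joint fit or against WT_Fezf2 libraries A and C, the share of all genes called was not counted. Those counts of members therefore have no background beside them. Of the fits that left out 1 library, the share was counted only without WT_Fezf2 library B and without Chd4_CTL library A, as given above. With each library left out in turn, Fezf2 KO had 1 to 3 higher and 1 to 9 lower members, Aire KO 0 higher and 8 to 13 lower, Chd4 cKO 7 to 10 higher and 8 to 10 lower, and WT_Fezf2 against WT_Aire 0 to 7 higher. The cause was not tested. A fit on reads unique to 1 gene was not run. No paired analysis was possible because the columns carry no replicate number. Gpx5, Gsto2 and Gstt4 had too few reads to be tested in any knockout comparison at this depth.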
